A study of Mus musculus with 6 samples.

Results

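Rag1, Rag2 and Dntt, the genes of the V(D)J recombinase and of terminal deoxynucleotidyl transferase (TdT), were followed in mouse acute lymphoblastic leukaemia driven by the fusion kinase BCR-ABL1. Every probe set annotated to exactly 1 of these 3 symbols was taken, which gave 3 of 18193 genes and 5 of 45037 probe sets: 1 for Rag1, 1 for Rag2 and 3 for Dntt. The genes were chosen by their measured levels, which earlier results of this same comparison showed to be higher in AID-/- leukaemia, so their levels are given below as a description, with no test. The groups are leukaemia cells labelled AID-/- (3 arrays) and leukaemia cells labelled AID+/+ (3 arrays), all labelled strain Balb/c. The arrays of a group are labelled as biological replicates. How BCR-ABL1 was introduced, and whether each leukaemia had its own donor animal or clone, is not given in the sources used here, so the p-values reflect variation among these arrays and no more. The values are RMA expression values on the log2 scale from Affymetrix arrays, so 1 unit is a doubling.

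V(D)J recombination assembles immunoglobulin and T cell receptor genes in developing lymphocytes. RAG1 and RAG2 form the nuclease that cuts at recombination signal sequences, with RAG1 holding the active site and RAG2 reading trimethylated histone H3 at active chromatin. End joining factors then seal the breaks, and TdT adds untemplated nucleotides to the heavy chain junctions before they close. In normal B cell development Dntt is a pro-B cell gene that is shut down on passage to the pre-B cell stage, whereas the Rag genes are switched on again in small pre-B cells for light chain rearrangement.

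The promoters are shown because the 3 genes were higher on the same arrays. Each sequence runs from 250 bases before to 50 bases after the RefSeq start of the gene, on the gene's own strand in the C57BL/6J assembly GRCm38.p6, and all 3 genes were matched. Rag1 (chr2:101649483-101649782, minus strand) and Rag2 (chr2:101624462-101624761, plus strand) are neighbours transcribed towards each other, and Dntt lies at chr19:41029025-41029324 on the plus strand. Capitals mark matches to 5 short motifs on either strand. Among them, GGGAA is the Ikaros core and covers only some ETS sites, so other ETS cores are left unmarked. The rest are CANNTG, the E-box bound by E proteins, TGTTTAC, a FOXO site, TGTGGT, a RUNX core, and CCAAT.
Rag1: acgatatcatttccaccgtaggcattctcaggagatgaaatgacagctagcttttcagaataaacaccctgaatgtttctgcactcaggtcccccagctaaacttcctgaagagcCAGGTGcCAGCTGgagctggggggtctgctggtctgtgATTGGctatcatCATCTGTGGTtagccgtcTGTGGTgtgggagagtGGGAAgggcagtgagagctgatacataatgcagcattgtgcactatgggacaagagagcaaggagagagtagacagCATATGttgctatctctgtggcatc
Rag2: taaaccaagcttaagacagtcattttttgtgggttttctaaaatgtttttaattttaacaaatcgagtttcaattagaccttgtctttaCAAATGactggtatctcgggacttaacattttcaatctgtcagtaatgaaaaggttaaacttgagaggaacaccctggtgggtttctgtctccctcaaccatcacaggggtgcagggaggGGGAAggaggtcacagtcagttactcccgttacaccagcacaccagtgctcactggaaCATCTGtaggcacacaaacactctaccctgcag
Dntt: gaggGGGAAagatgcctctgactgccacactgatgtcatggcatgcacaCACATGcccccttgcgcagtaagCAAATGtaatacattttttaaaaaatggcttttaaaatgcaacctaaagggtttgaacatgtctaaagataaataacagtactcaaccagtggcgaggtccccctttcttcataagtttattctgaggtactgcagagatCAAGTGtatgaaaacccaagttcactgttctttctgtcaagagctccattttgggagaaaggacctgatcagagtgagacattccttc
GGGAA occurred once in each promoter, starting 51 bases upstream of the start in Rag1, 41 bases upstream in Rag2 and 246 bases upstream in Dntt. Of 32851 RefSeq promoters of the same length, 62.7% held this motif. CANNTG occurred 4 times in Rag1, 2 times in Rag2 and 3 times in Dntt, and 72.3% of promoters held it. The E-box of Rag1 that starts 85 bases upstream overlaps the first of its 2 TGTGGT matches, a motif present in 16.8% of promoters and in neither Rag2 nor Dntt. CCAAT was found in Rag1 alone of the 3 and in 37.4% of promoters, while TGTTTAC was in none of the 3 and in 3.65% of promoters. These matches describe letters in a window and say nothing of binding.

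The 6 arrays had medians of 4.847 to 4.9. Across probe sets, which are no replicates of each other, Pearson's r was 0.9908 to 0.9939 between AID-/- arrays, 0.9947 to 0.9961 between AID+/+ arrays and 0.9721 to 0.9773 across the groups. The genotype labels were not checked against the arrays here. Transcripts of the sex chromosomes moved with the groups: Kdm5d, a Y-linked histone demethylase, averaged 7.66 ± 0.06 in AID-/- and 2.58 ± 0.14 in AID+/+ leukaemia, and Xist, the X-inactivation RNA, 5.30 ± 0.86 and 12.01 ± 0.14 (SD, n = 3 each). Sex and genotype therefore cannot be told apart in any result below. B-lineage identity was plain on every array: the 8 measured markers averaged 11.63 to 11.82 in AID-/- and 11.63 to 11.80 in AID+/+ arrays, and 1 of them, Ptprc, passed the test, at 0.37 lower. That call was lost in 5 of the 6 fits that left out 1 array (adjusted p up to 0.100, without AID+/+ replicate 2). Of 10 measured T-lineage markers 0 passed limma's test and 0 had an unadjusted p under 0.05. Their mean level was 4.71 to 4.75 in AID-/- and 4.75 to 4.84 in AID+/+ arrays, with Cd3g at 2.73 to 2.93 and 2.79 to 2.89 and 4 of the 10 below the array median on all arrays. Zap70, the brightest of them, differed by -0.18, but its 2 other probe sets were called lower, by differences of -2.22 and -1.06. Lyz2 was the 1 of 9 myeloid markers to pass, averaging 6.02 ± 0.40 in AID-/- leukaemia, against 5.26 ± 0.27 in the AID+/+ arrays (SD, n = 3 each), a call lost when any array but AID-/- replicate 3 was left out (adjusted p up to 0.135). The 9 myeloid markers averaged 4.29 to 4.45 in AID-/- and 4.24 to 4.58 in AID+/+ arrays, and 5 of them lay below the array median on all arrays. The part of sex-linked and myeloid signal in the results was not tested. In these bulk samples, fewer cells of a type and less RNA per cell cannot be told apart.

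Rag1, which encodes the catalytic subunit, stood at 9.41, 10.23 and 9.64 in AID-/- leukaemia, against 5.96, 6.28 and 5.81 in AID+/+ leukaemia. The lowest AID-/- array exceeded the highest AID+/+ array by 3.13 log2 units, so the groups did not overlap. The means were 9.76 ± 0.43 in AID-/- leukaemia and 6.02 ± 0.24 in AID+/+ leukaemia (SD, n = 3 each), which is 13.4-fold. Rag1 ranked at percentiles 90.6 to 94.7 of the probe sets on AID-/- arrays and at percentiles 60.5 to 64.6 on AID+/+ arrays.

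Rag2, which encodes the chromatin-reading partner subunit, stood at 7.96, 8.57 and 8.50 in AID-/- leukaemia, against 5.24, 5.85 and 5.62 in AID+/+ leukaemia. The gap between the groups was 2.11 log2 units. Means were 8.35 ± 0.33 in AID-/- leukaemia and 5.57 ± 0.31 in AID+/+ leukaemia (SD, n = 3 each), or 6.85-fold. Rag2 ranked at percentiles 79.5 to 84.4 on AID-/- arrays and at 54.4 to 60.8 on AID+/+ arrays. The difference between the groups was thus 3.74 log2 units (SE 0.21) for Rag1 and 2.78 (SE 0.20) for Rag2, each from a single probe set.

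Dntt, the terminal transferase gene, differed most and varied most of the 3. At its brightest probe set, 1450545_a_at, it stood at 7.66, 11.39 and 9.88 in AID-/- leukaemia, against 3.82, 4.22 and 4.11 in AID+/+ leukaemia. AID-/- replicate 1 was the low array and replicate 2 the high one, yet even replicate 1 lay 3.44 log2 units above the highest AID+/+ array. The means of 9.64 ± 1.88 in AID-/- leukaemia and 4.05 ± 0.21 in AID+/+ leukaemia (SD, n = 3 each) differed by 5.60 (SE 0.76).

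The other 2 Dntt probe sets had the same order of AID-/- arrays. Probe set 1449757_x_at, of a class that may cross-hybridise with other transcripts, stood at 7.82, 10.89 and 9.44 in AID-/- leukaemia, against 4.04, 4.10 and 4.02 in AID+/+ leukaemia. Probe set 1420166_at stood at 5.08, 8.46 and 7.30 in AID-/- leukaemia, against 3.16, 3.29 and 2.80 in AID+/+ leukaemia. All 3 probe sets thus separated the groups, by gaps of 3.44, 3.72 and 1.78 log2 units. In AID+/+ leukaemia they ranked at percentiles 32.5 to 39.8, 35.9 to 37.8 and 5.49 to 19.2, below the middle of each array, so the fold changes of 48.3, 40.2 and 14.6 rest on dim AID+/+ values. The AID-/- arrays lay above all AID+/+ arrays at 5 of 5 probe sets of the 3 genes, where 14.2% of all probe sets and 17.5% of all genes did so. Because this contrast chose the genes, nothing is read from that count.

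**Figure D1:**
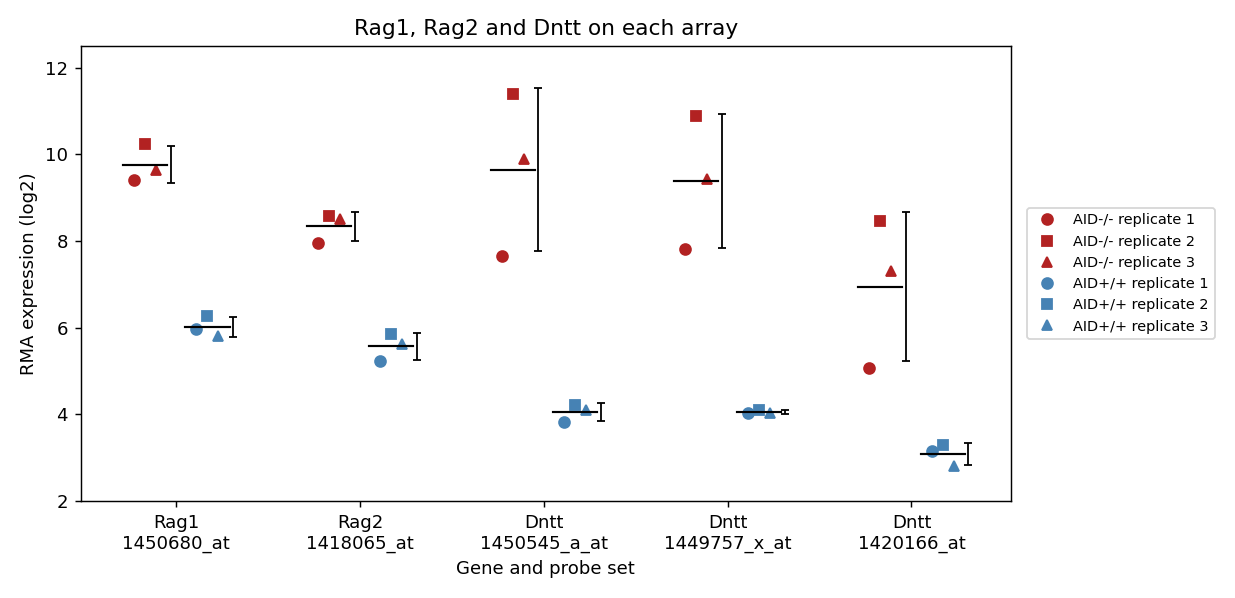
RMA expression (log2) of the 5 probe sets of Rag1, Rag2 and Dntt on each array, AID-/- in red on the left and AID+/+ in blue on the right of each pair; horizontal lines are means of 3 arrays and bars are SD. The 3 AID-/- values lie above the 3 AID+/+ values at every probe set, and the AID-/- values of Dntt spread widely, with replicate 1 lowest and replicate 2 highest.

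Inside the AID-/- group the 3 genes differed in how evenly they were expressed. Between AID-/- replicates 2 and 1 Dntt differed by 3.73, 3.07 and 3.39 log2 units at its 3 probe sets, or 13.3-fold, 8.39-fold and 10.5-fold. The same arrays differed by 0.83 for Rag1 and 0.61 for Rag2. The SD of 1.88 for Dntt was exceeded by 6 of 18193 genes, each read at its brightest probe set, whereas 774 genes exceeded the SD of Rag1 and 1336 that of Rag2, and the median gene had an SD of 0.12. In AID+/+ leukaemia the SDs were 0.24 for Rag1, 0.31 for Rag2 and 0.21 for Dntt, with a median of 0.11 over all genes. AID-/- replicate 1 was the array nearest to the AID+/+ mean for 3 of 3 genes. It was the nearest one for 40.6% of the 3371 genes called between the groups, and for 28 of the 42 called genes whose AID-/- SD was at least 1. Eif2s3y, a Y-linked translation factor gene, was also uneven, at 8.85, 3.67 and 2.71 in AID-/- replicates 1 to 3, and at 2.51 to 2.59 in AID+/+ leukaemia.

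**Figure D2:**
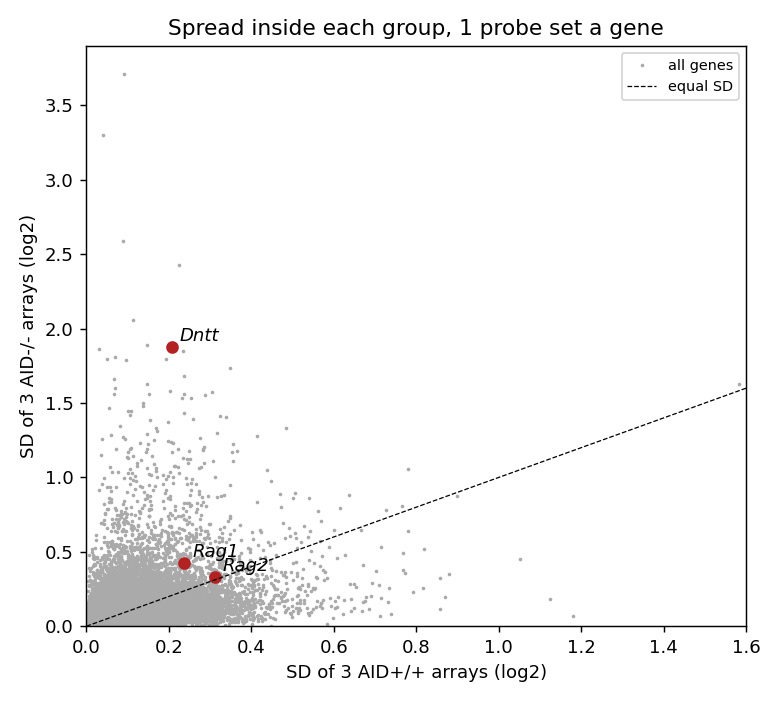
SD of the 3 AID-/- arrays (vertical axis, log2) against the SD of the 3 AID+/+ arrays (horizontal axis, log2) for 18193 genes in grey, with Rag1, Rag2 and Dntt in red and the dashed line marking equal SD. Dntt lies high, with 6 genes above it, at 1.88 against 0.21, while Rag1 at 0.43 against 0.24 and Rag2 at 0.33 against 0.31 lie far below Dntt but above the medians of 0.12 and 0.11 over all genes.

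Regulators reported to act on the Rag and Dntt genes, not all of them transcription factors, moved in both directions. Of 30 measured, 5 rose and 6 fell in AID-/- leukaemia and 19 did not pass, where 18.5% of all genes passed, 10.1% higher and 8.42% lower. The list median was -0.01, against -0.03 over all genes. Tests here and below are limma's moderated test with Benjamini-Hochberg adjustment over 18193 genes. The list was compiled with earlier results known, so its share is not independent evidence.

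Satb1, a chromatin organiser that sustains Rag transcription in mouse thymocytes, rose most. It stood at 8.05, 7.32 and 7.64 in AID-/- leukaemia, against 4.06, 4.53 and 4.56 in AID+/+ leukaemia, with no overlap. The AID+/+ values lay below the median of each array, so the 9.74-fold difference (limma adjusted p = 3.63e-05) rests on dim values. Of its 4 other probe sets 2 were also called higher, with differences of 4.41 and 1.29, and 2 dim ones differed by 0.10 and -0.04. Foxo1, the activator that binds the Erag enhancer, averaged 10.35 ± 0.27 in AID-/- leukaemia and 9.29 ± 0.09 in AID+/+ leukaemia (SD, n = 3 each; limma adjusted p = 0.00175). Of its 3 other probe sets 2 were also called higher and a dim one differed by -0.05.

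The E protein inhibitors split. Id3 rose, averaging 10.02 ± 0.06 in AID-/- leukaemia and 8.50 ± 0.11 in AID+/+ leukaemia, whereas Id2 fell, at 4.54 ± 0.72 and 6.99 ± 0.24 (SD, n = 3 each), with limma adjusted p of 2.97e-05 and 0.00181. Id2 stood at 3.83, 5.28 and 4.51 in AID-/- leukaemia, against 7.0, 7.22 and 6.75 in AID+/+ leukaemia, and 1 of its 2 other probe sets was also called lower. The E protein genes in the list did not pass: Tcf3 differed by 0.08 and Tcf12 by 0.07.

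The paralogous zinc finger repressors Gfi1 and Gfi1b also split. Gfi1 fell by 1.39 (SE 0.25) and stood at 7.57, 6.44 and 6.80 in AID-/- leukaemia, against 8.27, 8.42 and 8.28 in AID+/+ leukaemia. Gfi1b, which represses Rag transcription in mouse pro-B cells, rose by 0.60 (SE 0.11). Other regulators fell without overlap between groups: Bach2 by 1.77 (SE 0.19), Ikzf1, which encodes Ikaros, by 0.97 (SE 0.11), Irf4 by 0.95 (SE 0.13) and Ets1 by 0.51 (SE 0.10). Of the other Ets1 probe sets 1 was also called lower, and the rest differed by -0.17 and -0.07 and did not pass. Gadd45a, reported to induce the Rag genes in mouse B cell lines, rose by 0.90 (SE 0.22). That call held without AID-/- replicate 1 and was lost without any of the other 5 arrays in turn (limma adjusted p up to 0.0982, without AID+/+ replicate 3). Among those that did not pass, the brightest were Cbfb and Myb, at -0.09 and -0.11. Pax5 differed by -0.37 and Ebf1 by 0.28. Without AID-/- replicate 1 Ebf1 was higher by 0.44 (adjusted p = 0.0216). The probe sets of 2 genes that did not pass disagreed. Runx1 differed by -0.14, and its other probe sets by -0.81 to 0.51, with 1 called lower and 1 called higher. Bcl11a differed by -0.26, and its other probe sets by -0.68 to 0.15, with 1 called lower.

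**Figure D3:**
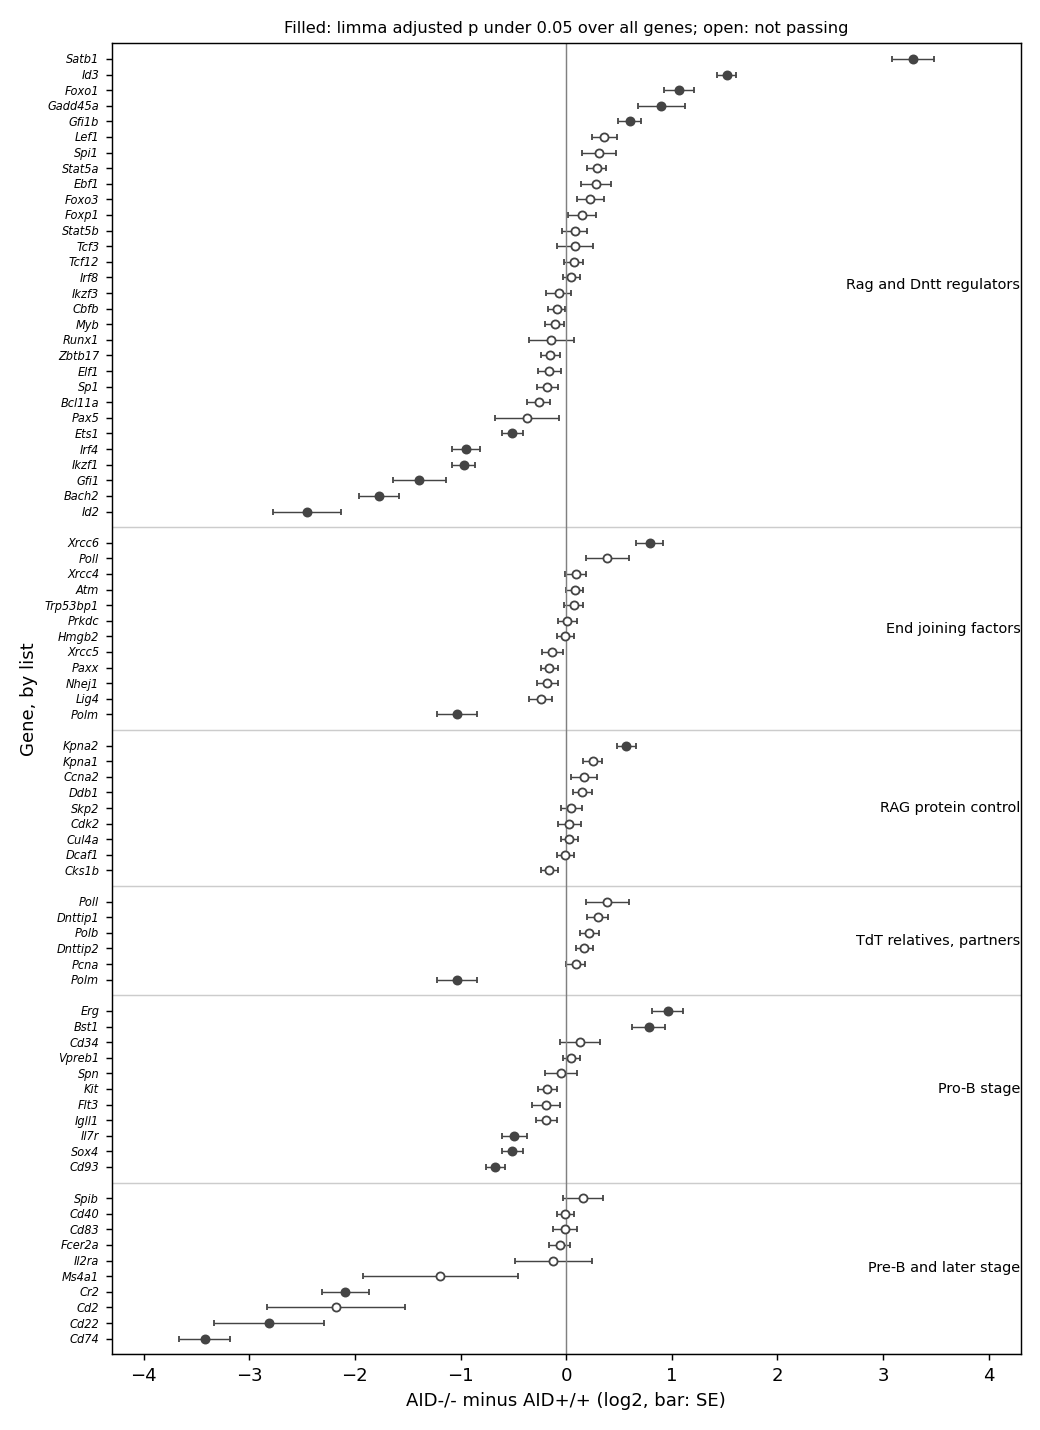
Difference AID-/- minus AID+/+ (log2, points with SE bars) for the genes of 6 lists, one gene per row; filled points passed limma's test over all genes and open points did not. Satb1, at 3.28, is the farthest to the right, and Cd74, at -3.42, the farthest to the left; most end joining and RAG control genes cluster around 0.

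Among the factors that handle the RAG proteins 1 of 9 (11.1%) passed, where 18.5% of all genes did. This list holds the DCAF1 ubiquitin ligase that binds RAG1, the importins that carry it, and the CDK2 and SKP2 machinery that removes RAG2 in cycling cells. Kpna2, the importin first isolated as a RAG1-binding protein, was 1 of 9 to rise, averaging 12.54 ± 0.05 in AID-/- leukaemia and 11.97 ± 0.11 in AID+/+ leukaemia (SD, n = 3 each; limma adjusted p = 0.00411). The other 8 did not pass, with the bright Cks1b at -0.16, Ccna2 at 0.17, Skp2 at 0.05, Cdk2 at 0.03 and Dcaf1 at -0.01. The list median was 0.05. At its other probe set Dcaf1 differed by 0.71, which did not pass.

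The end joining factors that close the breaks likewise had a median of 0.00. Of 12 measured, 1 rose, 1 fell (Polm, described with the relatives of TdT) and 10 did not pass, so 16.7% passed, where 18.5% of all genes did. Xrcc6, which encodes Ku70, stood at 9.90, 10.39 and 10.21 in AID-/- leukaemia, against 9.38, 9.47 and 9.29 in AID+/+ leukaemia, a rise of 0.79 (SE 0.13) at this probe set and 0.20 at its other one, which did not pass. Its partner Xrcc5, which encodes Ku80, differed by -0.13 and did not pass. Hmgb2, the bright DNA-bending cofactor of RAG, differed by -0.01. Lig4, Xrcc4 and Prkdc, which encode the ligase, its scaffold and the DNA-dependent kinase, differed by -0.24, 0.09 and 0.01.

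Terminal transferase has close relatives in DNA polymerases mu and lambda, which fill gaps during end joining. Polm fell while Dntt stood higher: it was at 7.37, 6.94 and 7.77 in AID-/- leukaemia, against 8.52, 8.40 and 8.25 in AID+/+ leukaemia, without overlap. The fall was 1.03 (SE 0.19, limma adjusted p = 0.00874). Poll stood at 6.40, 6.87 and 6.23 in AID-/- leukaemia, against 6.25, 5.74 and 6.33 in AID+/+ leukaemia, and the groups overlapped. Polm was the 1 of 6 relatives and partners to pass (16.7%), where 18.5% of all genes did. Pcna, the brightest, differed by 0.09. Polb, another polymerase of the family, and the TdT-interacting proteins Dnttip1 and Dnttip2 differed by 0.22, 0.30 and 0.17 without passing, and the other probe set of Dnttip1 differed by -0.30.

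Genes of the stages at which Rag1, Rag2 and Dntt are normally active did not move as a block. Of 11 pro-B stage genes 2 rose, 3 fell and 6 did not pass, where 10.1% of all genes rose and 8.42% fell, and the list median was -0.18. Erg, an ETS factor of progenitors, rose by 0.96 (SE 0.15) and Bst1, a surface enzyme of early B cells, by 0.78 (SE 0.16), although its other probe set did not pass and the call was lost with the mean of both (limma adjusted p = 0.0552). Cd93 fell by 0.67 (SE 0.09) and Sox4 by 0.51 (SE 0.10), although 0 of the 7 other Sox4 probe sets passed limma's test. Il7r, the receptor for the cytokine interleukin-7, fell by 0.49 (SE 0.12), a call lost in 4 of the 6 fits that left out 1 array and with the replicate block (adjusted p = 0.0652; up to 0.0993 without AID+/+ replicate 2). The other Il7r probe set was also called lower, with a difference of -0.74, and the mean of both passed (limma adjusted p = 0.0106). Vpreb1 and Igll1, which encode the surrogate light chain, differed by 0.05 and -0.19 and did not pass.

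Of 10 measured pre-B and later stage genes, 0 rose, 3 fell and 7 did not pass, where 10.1% of all genes rose and 8.42% fell. At an unadjusted p under 0.05 limma gave 4. The fallers were Cd74, the invariant chain of MHC class II, by 3.42 (SE 0.24), Cd22, an inhibitory receptor, by 2.81 (SE 0.52), and Cr2, a complement receptor, by 2.09 (SE 0.22). The median of the 10 was -0.66, and 3 of the 10 lay below the array median on all arrays.

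Some pre-B and later stage genes were uneven across the AID-/- arrays in the reverse order of Dntt. Cd22 stood at 9.59, 7.12 and 8.44 in AID-/- leukaemia, against 11.42, 11.01 and 11.15 in AID+/+ leukaemia. Cd2, an adhesion molecule that marks later B-lineage cells in mice, stood at 8.82, 5.88 and 8.28 in AID-/- leukaemia, against 9.81, 9.80 and 9.92 in AID+/+ leukaemia. Ms4a1, which encodes CD20, stood at 9.21, 5.76 and 7.76 in AID-/- leukaemia, against 9.14, 8.73 and 8.44 in AID+/+ leukaemia. For each of the 3, AID-/- replicate 1 was highest and replicate 2 lowest, opposite to Dntt. Il2ra, of the same list, was uneven in the same order as Dntt and did not pass. It stood at 6.23, 7.86 and 7.05 in AID-/- leukaemia, against 7.21, 6.87 and 7.42 in AID+/+ leukaemia. Cd2 and Ms4a1 did not pass with all arrays. Without AID-/- replicate 1, Cd2 fell by 2.76 and Ms4a1 fell by 2.01 (limma adjusted p = 0.0177 and 0.0375), which gave 5 lower members. Without AID-/- replicate 2, Cd2 fell by 1.29 (limma adjusted p = 0.00157).

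The genes beside Rag1, Rag2 and Dntt were examined in chromosome order, 5 measured genes on each side. Of the 20 neighbours 5 rose, 2 fell and 13 did not pass, where 10.1% of all genes rose and 8.42% fell. Around Rag1 and Rag2, the rising genes were Iftap, Commd9 and Ldlrad3.

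Iftap, also named NWC, is the next gene to Rag2 and overlaps it by 4320 bases in RefSeq. It stood at 5.21, 5.97 and 6.05 in AID-/- leukaemia, against 4.07, 4.32 and 3.48 in AID+/+ leukaemia (limma adjusted p = 0.00346). Its 3 other probe sets differed by -0.15 to 0.33 and did not pass, and which of the overlapping transcripts the rising probe set reads was not tested. On the far side of Rag1, Traf6 and Prr5l, the nearest genes, did not pass, with 0.22 and -0.10. Other Traf6 probe sets differed by -0.73 to 0.39. Ldlrad3, the fourth gene on that side, stood at 6.19, 5.85 and 5.96 in AID-/- leukaemia, against 4.20, 4.29 and 4.29 in AID+/+ leukaemia. Commd9, the third, rose by 0.57 (SE 0.09).

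Around Dntt, the neighbour next to it on one side, Blnk, rose and the neighbour on the other side, Opalin, did not pass. Blnk, which encodes a signalling adaptor that couples the pre-B cell receptor to its effectors, stood at 12.33, 12.68 and 12.61 in AID-/- leukaemia, against 10.42, 10.60 and 10.33 in AID+/+ leukaemia. Its AID-/- SD was 0.19, against 1.88 for Dntt beside it. Opalin differed by -0.15. Entpd1, an ectonucleotidase gene, rose by 0.91 (SE 0.14) 5 places away. Pik3ap1, the BCAP adaptor, and Lcor fell by 0.92 (SE 0.24) and 0.47 (SE 0.13). Leaving out any of the 3 AID+/+ arrays ended the Pik3ap1 call (limma adjusted p up to 0.101, without AID+/+ replicate 1), and that on Lcor in 4 of the 6 such fits (up to 0.119, without AID+/+ replicate 3).

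**Figure D4:**
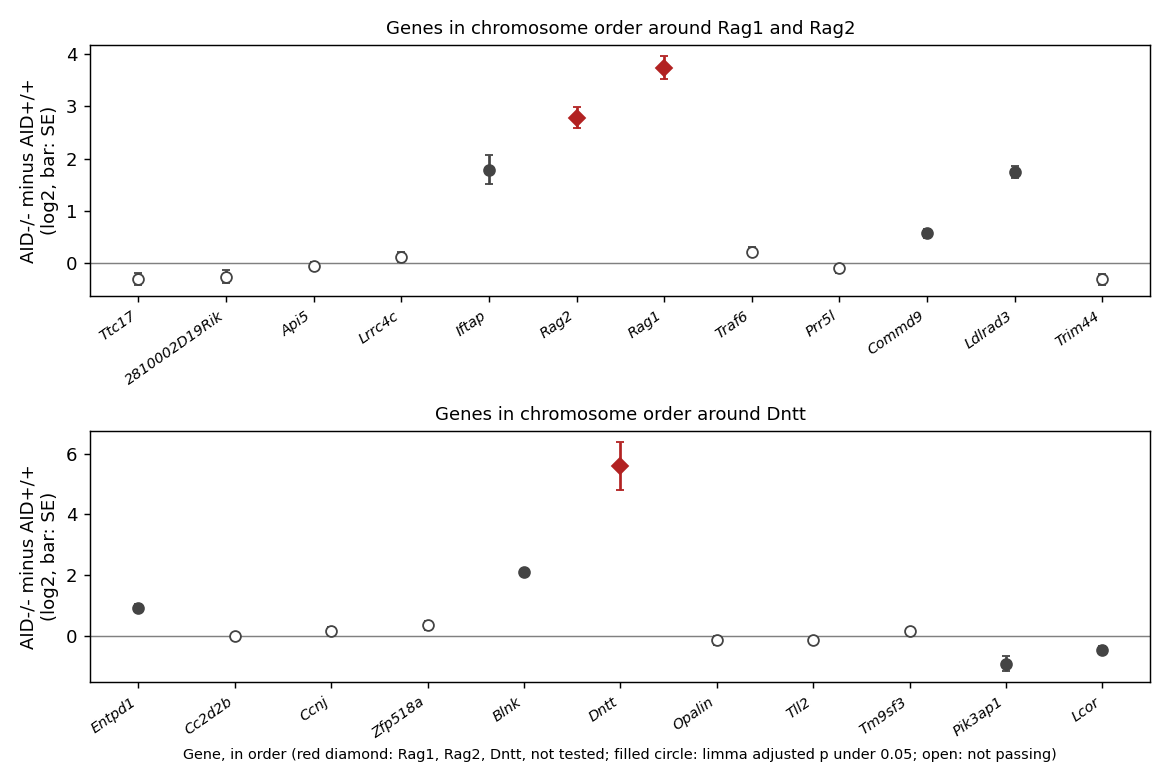
Difference AID-/- minus AID+/+ (log2, bars are SE) for Rag1 and Rag2 (upper) and Dntt (lower), red diamonds, and their 5 nearest measured genes on each side in chromosome order; filled circles passed limma's test and open ones did not. Iftap, next to Rag2, and Blnk, next to Dntt, stand at 1.79 and 2.09. Traf6, next to Rag1, and Opalin, next to Dntt, stand at 0.22 and -0.15. Each gene is shown at its brightest probe set.

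The genes most like each of the 3 were found by centring every gene on its own mean over the 6 arrays and taking the root-mean-square difference in log2 units. By the same measure Rag1 and Rag2 were 0.53 apart, Rag1 and Dntt 1.27, and Rag2 and Dntt 1.68. The measure rests mostly on the size of the difference between the groups, and the genes below share only these 6 arrays. Because the genes were picked on these arrays, a shared order of arrays is favoured by the choice.

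Sgk1, a kinase gene, was nearest to Rag1 at 0.15, with 8.25, 9.02 and 8.37 in AID-/- leukaemia, against 4.41, 4.87 and 4.70 in AID+/+ leukaemia. Next came Parp12, Golm1, Uty and Scn4b at 0.20 to 0.27. Uty is Y-linked, so a transcript that follows sex was among the nearest. Slamf9, Cand2 and Tox came nearest to the mirror image, at 0.26 to 0.38.

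Ms4a6c was nearest to Rag2 at 0.19, with 7.58, 8.52 and 8.41 in AID-/- leukaemia, against 5.38, 5.49 and 5.64 in AID+/+ leukaemia. Rgs8, Rhob, Itgal, which encodes the integrin alpha L chain, and Gbp2, an interferon-inducible GTPase gene, followed at 0.19 to 0.22. The homeobox gene Meis2 was the nearest mirror image at 0.17, followed by Gm26760 and Zfp462, both at 0.19.

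Dntt had no neighbour as close. AA467197, also named Nmes1, was nearest at 0.66, with 5.70, 9.38 and 7.80 in AID-/- leukaemia, against 3.10, 3.37 and 3.56 in AID+/+ leukaemia. Its AID-/- arrays stood in the same order as those of Dntt and their SD was 1.85, against 1.88 for Dntt. Gbp2b, the long non-coding RNA gene Gm17767, Retreg1 and Ift43 followed at 0.78 to 0.96. Gm17767 stood at 7.46, 10.32 and 8.90 in AID-/- leukaemia, against 4.70, 4.64 and 5.07 in AID+/+ leukaemia, again with replicate 1 lowest and replicate 2 highest. The nearest mirror images, S100a4, Plxna2 and Klhdc1, lay at 0.98 to 1.09.

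**Figure D5:**
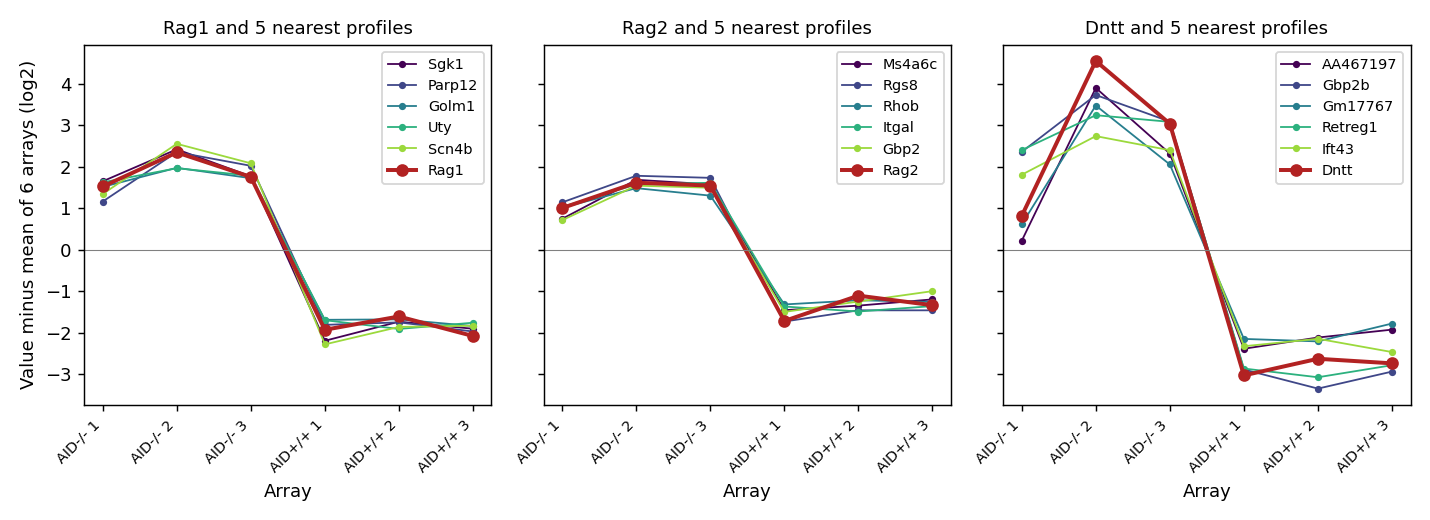
Expression of Rag1, Rag2 and Dntt (red) and of the 5 genes with the nearest profile (other colours) on the 6 arrays, AID-/- left of AID+/+, as value minus the gene's mean over the arrays (log2). The genes nearest to Rag1 and Rag2 lie at root-mean-square differences of 0.15 to 0.27 from them. All 5 genes around Dntt have AID-/- replicate 1 lowest and replicate 2 highest of the AID-/- arrays. Rag1, Rag2 and all 5 genes around Rag1 have this order too, as do the genes around Rag2 except Itgal. The nearest genes were picked on these same arrays, which favours a shared order.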

How the data were processed

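The authors deposited log2 expression values for each array. RMA and Partek are named, with no version, per the submitters' processing notes. Per the labels' protocols, 6 micrograms of total RNA per sample were labelled with biotin for Affymetrix arrays. Detection calls were not used here, and the number of arrays limits the precision.

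Of 45101 probe sets, 64 controls were left out. Symbols came from the platform annotation (34945 probe sets with exactly 1 symbol, 932 with several, 9160 not named), and 34741 took their current RefSeq name through the Entrez identifier. The brightest probe set by mean stood for each of 18193 genes. Some genes of the lists were not analysed here. Differences are AID-/- minus AID+/+, fitted with limma 3.58.1 in R 4.3.3 (group as the only term). Its two-sided p-values were adjusted by Benjamini-Hochberg over all genes, and a gene was called under 0.05. The fit was tested on simulated data. Named by rule were the members, every neighbour past the threshold, up to 8 passing genes of each list by smallest p with up to 2 of its brightest that did not pass, and the 5 nearest and 3 mirrored profiles. Added after their values were seen were Gfi1, Ets1 and Gadd45a, which passed, and the further genes named that did not pass. The members and lists were chosen with earlier results of these data known. Deviations of same-numbered arrays correlated at -0.056, -0.0782 and -0.0128, which gave no ground for pairing arrays by number. Motifs and promoter tables were searched in Python 3.11.15. Alternatives were a replicate block, leaving out each array, the mean of a gene's probe sets, no variance moderation, an intensity trend, leaving out dim genes, median centring and quantile normalization.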

Additional observations from a re-analysis of the deposited data

How the results depend on the processing

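The differences of Rag1, Rag2 and Dntt moved by less than the spread between replicates under quantile normalization and median centring, as did that of Dntt with the mean of its probe sets. Rag1 and Rag2 have 1 probe set each, and in this balanced design the replicate block cannot move a difference, so those settings say nothing of stability. With 1 array left out they ranged from 3.51 to 3.92 for Rag1, from 2.61 to 2.97 for Rag2 and from 4.72 to 6.59 for Dntt. Leaving out 1 array gave 2142 (without AID+/+ replicate 3) to 3214 calls over all genes, against 3371 with all arrays. It gave 10 to 12 calls among regulators, 2 among end joining factors, 1 each among RAG control factors and TdT relatives, 4 to 5 among pro-B genes, 3 to 5 among later stage genes and 5 to 8 among neighbours. Without variance moderation limma called 1635 genes over all, 6 regulators, 0 end joining factors, 0 TdT relatives, 1 pro-B gene and 3 neighbours; that fit has 4 residual degrees of freedom. The replicate block gave 2696 calls over all genes, 11 regulators, 2 end joining factors and 6 neighbours, all within 1.5 times the counts without it; it also called Cd2 (adjusted p = 0.0395) and lost Il7r, Ptprc and Lcor (adjusted p of 0.0652, 0.0605 and 0.0665). Of the values of 34 named genes under the alternatives, 392 kept their call, 50 lost it and 0 changed direction.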
